A study of Mus musculus with 22 samples.

Results

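The genes described here are 8 targets and regulators of the response to interleukin 4: Retnla, Mgl2, Clec10a, Irf4, Il4ra, Stat6, Klf4 and Arg1. They were taken by name, with earlier results of these data known, as 8 of the 52636 genes in the deposited tables, and all 8 were found. The study sequenced RNA in bulk from mouse renal capsule, the thin sheath around the kidney, and from macrophages, the phagocytes resident in tissues. By title its 22 libraries form 6 groups: young capsule tissue and aged capsule tissue (n = 3 each), and 4 groups of n = 4, which are capsule macrophages, kidney macrophages, young RCAM libraries and aged RCAM libraries. No genotype, strain, sex or age in weeks is labelled for any group, the treatment is given as none throughout, and the capsule and kidney macrophages carry no age. RCAM is not spelled out. Its libraries are labelled as whole tissue, whereas the series text speaks of capsules sorted for macrophages.

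A list of 10 macrophage genes (Csf1r, Adgre1, C1qa and others) had a summed level of 32151 to 34456 counts per 1e6 counted reads (CPM) in young RCAM libraries and 32827 to 35946 CPM in aged ones. The list reached 30209 to 33394 CPM in sorted macrophages of the capsule, and the tissue libraries 1830 to 9347 CPM. The 6 genes of an adipocyte list together reached 20.8 to 84.1 CPM in RCAM libraries, and every tissue library had 8854 CPM or more. By these markers the RCAM libraries stood with the sorted macrophages and not with the tissue they are labelled as. Total counts per library, in 1e6, ran from 20.6 to 22.2 in young tissue, 27.1 to 43.2 in aged tissue, 31.8 to 53.4 in capsule and kidney macrophages and 45.0 to 54.4 in RCAM libraries. Adrenal cortex genes reached 179 CPM in young tissue replicate 2 and 5919 CPM in aged tissue replicate 2, and at most 13.6 CPM in the other libraries. Nothing states that replicates came from separate animals, so p-values cover the spread among these libraries only, and that spread may be technical.

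Interleukin 4 and interleukin 13 bind receptors that contain the Il4ra chain, whose Janus kinases phosphorylate Stat6. Phosphorylated Stat6 enters the nucleus and, with partners that include Klf4 and Irf4, switches on genes of the state known as alternative activation in mouse macrophages. Retnla, a secreted resistin-like protein, Mgl2 and Clec10a, a pair of lectins that bind galactose-type sugars, and Arg1, which splits arginine, are textbook products of that state. None of these genes is limited to macrophages: Mgl2, Clec10a and Irf4 are also known from dendritic cells, Irf4 from B and plasma cells and brown fat, and Klf4 from fibroblasts, endothelium and epithelia.

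The stretches before the start sites of Retnla, Mgl2 and Irf4 are shown because these are the 3 members that were lower in aged than in young RCAM libraries. Each is the 250 bases before the RefSeq start site, 5′ to 3′, on GRCm38.p6. The gene spans given further below come from GENCODE and begin earlier, so each stretch ends inside the span of its gene. Capitals mark a match to the palindrome known for binding of Stat6, which is TTC, then any 4 bases, then GAA.
Retnla, chr16:48842359-48842608, plus strand: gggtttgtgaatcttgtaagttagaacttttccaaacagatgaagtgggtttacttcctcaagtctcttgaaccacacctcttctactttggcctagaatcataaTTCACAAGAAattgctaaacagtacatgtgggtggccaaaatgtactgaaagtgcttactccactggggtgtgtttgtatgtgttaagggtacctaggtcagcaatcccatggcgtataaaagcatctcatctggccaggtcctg
Mgl2, chr11:70130107-70130356, plus strand: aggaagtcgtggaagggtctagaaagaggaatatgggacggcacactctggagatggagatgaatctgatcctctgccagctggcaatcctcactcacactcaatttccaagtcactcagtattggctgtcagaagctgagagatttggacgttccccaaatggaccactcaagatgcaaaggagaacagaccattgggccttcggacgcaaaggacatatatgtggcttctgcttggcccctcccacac
Irf4, chr13:30748983-30749232, plus strand: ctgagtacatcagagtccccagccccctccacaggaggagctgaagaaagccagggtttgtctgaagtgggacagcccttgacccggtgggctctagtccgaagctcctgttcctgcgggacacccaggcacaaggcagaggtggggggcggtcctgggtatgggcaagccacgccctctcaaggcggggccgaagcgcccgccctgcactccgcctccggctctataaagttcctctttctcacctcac
RefSeq promoters were found for 6 of the 8 members, the others being Clec10a and Arg1. They were searched over 300 bases, from 250 before to 50 after the start site, for this motif and for the form with 3 bases between TTC and GAA, on both strands (each is its own reverse complement). The first motif occurred in 6.95% of 32851 promoters of this length and the second in 8.3%. Retnla held 1 match, TTCACAAGAA, whose first base lies at -145 from the RefSeq start site. No match to either motif was found in this window for Mgl2, Irf4, Il4ra, Stat6 or Klf4. A match is a run of letters, not a measured binding site.

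The genes lie apart in the genome except for the lectins. In GRCm38 Mgl2 (ENSMUSG00000040950) spans chr11:70130329-70137550 and Clec10a (ENSMUSG00000000318) follows it on the same plus strand at chr11:70156197-70170834. Retnla (ENSMUSG00000061100) spans chr16:48842551-48844461, Irf4 (ENSMUSG00000021356) chr13:30749226-30766976, Il4ra (ENSMUSG00000030748) chr7:125552120-125579474 and Stat6 (ENSMUSG00000002147) chr10:127642986-127660957, all on the plus strand. Klf4 (ENSMUSG00000003032) at chr4:55527143-55532466 and Arg1 (ENSMUSG00000019987) at chr10:24915221-24927484 lie on the minus strand. All 8 are annotated as protein-coding. Stat6 overlaps Nab2 on the opposite strand, which had at most 2387 counts in a library where Stat6 reached 27814 in its highest. Transcripts of Mgl2 and Clec10a share 270 windows of 50 bases, the read length, which is 12.24% of the windows of Mgl2 and 8.49% of those of Clec10a, so some reads of either lectin could be counted for the other. The gene width deposited with the counts of Clec10a is 4212 bases, against a span of 14638 bases here. Its counts may thus rest on a shorter gene model than the exons and transcripts used here.

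Retnla was the most abundant member in each group except kidney macrophages. Per kilobase of exon, its mean level in young RCAM libraries was 19828 CPM, against 827 CPM for Mgl2, 254 CPM for Clec10a, 100.4 CPM for Stat6 and 48.2 CPM for Il4ra. Irf4 stood at 19.4, Klf4 at 7.21 and Arg1 at 2.77 CPM per kilobase in the same libraries. In kidney macrophages the order began with Mgl2 at 402 CPM per kilobase, followed by Stat6 at 82.2 and Retnla at 55.3. Over the 4 groups of sorted or RCAM libraries the group means of Il4ra ran from 33.3 to 53.2 CPM per kilobase and those of Stat6 from 82.2 to 123 CPM per kilobase, a far narrower span than that of Retnla. All further levels are in CPM of the library total, without length.

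**Figure D1:**
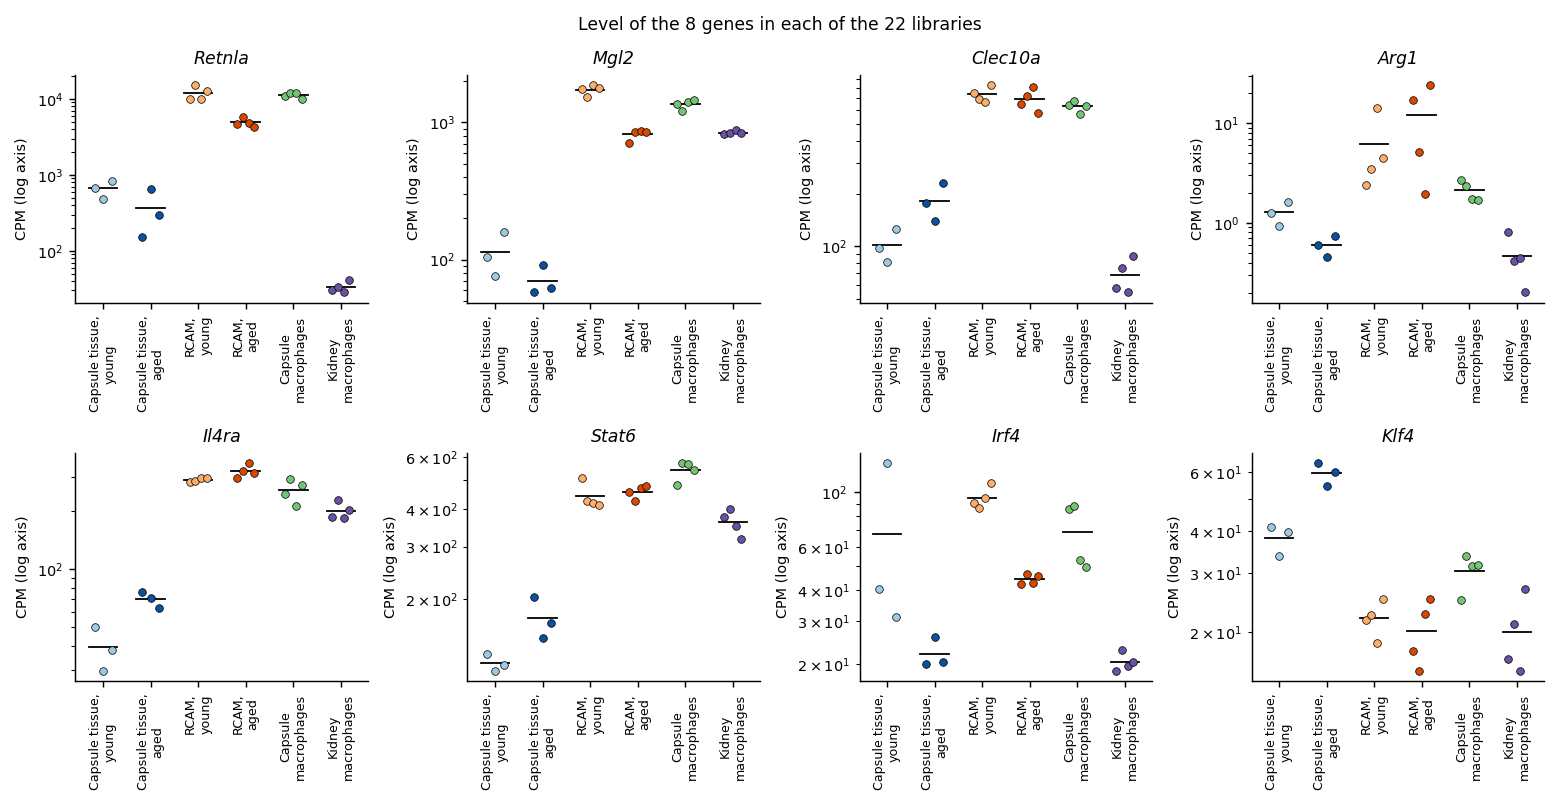
Level of each of the 8 genes in CPM (log axis, a separate scale for each gene), with 1 point per library and a line at the group mean. Retnla lies at 28.3 to 40.7 CPM in kidney macrophages and at 10063 to 12034 CPM in capsule macrophages, while Arg1 stays under 25 CPM in all 22 libraries.

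Macrophages of the capsule were compared with those of the kidney, which asks how resident macrophages of neighbouring sites differ. All 8 members were higher in the capsule macrophages, by 1.48-fold for Il4ra to 390-fold for Retnla. Of 15701 genes tested by edgeR's quasi-likelihood test with Benjamini-Hochberg adjustment (adjusted p under 0.05), 55.4% passed in either direction, 27.3% higher in the capsule and 28.2% lower.

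The capsule libraries had 10922, 12034, 11861 and 10063 CPM of Retnla, and the kidney libraries 29.97, 33.5, 28.3 and 40.7 CPM. The groups are far apart and each is tight. Retnla rose by 8.61 ± 0.17 (SE) on the log2 scale (edgeR adjusted p = 2.71e-10). Clec10a measured 640, 678, 570 and 630 CPM in the capsule and 57.8, 75.6, 54.6 and 88.2 CPM in the kidney. This lectin rose by 3.39 ± 0.17 on the log2 scale (edgeR adjusted p = 1.34e-07), with no overlap between groups.

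Mgl2, its neighbour, differed far less, with 1352, 1207, 1397 and 1463 CPM in the capsule and 828, 837, 874 and 832 CPM in the kidney. The log2 fold change of Mgl2 was 0.90 ± 0.07 (edgeR adjusted p = 4.04e-06), again without overlap. Arg1 was scarce in both groups: 2.68, 2.37, 1.74 and 1.70 CPM in the capsule and 0.81, 0.42, 0.44 and 0.20 CPM in the kidney, where it rested on 10 to 37 counts per library. The groups did not overlap, and the log2 fold change was 2.40 ± 0.44 (edgeR adjusted p = 0.000887).

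Among the regulators Irf4, the transcription factor with the widest difference, measured 85.8, 88.3, 52.9 and 49.6 CPM in the capsule against 18.9, 22.9, 19.7 and 20.4 CPM in kidney macrophages. Capsule replicates 1 and 2 were the high ones, yet the lowest capsule library lay above the highest kidney library. Irf4 rose by 1.97 ± 0.20 on the log2 scale (edgeR adjusted p = 1.67e-05). Stat6, the signal transducer, measured 481, 571, 570 and 544 CPM against 376, 402, 352 and 319 CPM. It rose by 0.79 ± 0.09 (edgeR adjusted p = 3.17e-05), without overlap.

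For Il4ra, the receptor chain, the capsule libraries had 245, 292, 212 and 271 CPM and the kidney libraries 186, 228, 183 and 202 CPM. The lowest capsule library fell within the kidney range, and the log2 fold change was 0.56 ± 0.12 (edgeR adjusted p = 0.00249). Klf4, a zinc-finger factor, also overlapped, with 24.9, 33.6, 31.4 and 31.7 CPM against 16.6, 21.2, 15.3 and 26.9 CPM, and a log2 difference of 0.80 ± 0.19 (edgeR adjusted p = 0.00497). Over all genes tested the groups did not overlap for 54.1%, and 6 of the 8 members did not overlap. Without scaling factors the median of all tested genes moved from -0.03 to -0.24 on the log2 scale, and all 8 members still passed as higher.

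The other 46 genes of the interleukin 4 and 13 pathway list did not share that uniform direction. Of 40 tested, 16 were higher in capsule macrophages, 16 were lower and 8 did not pass, and their median log2 fold change of -0.03 equalled that of all genes. Among the targets, 9 of 21 were higher and 10 were lower. Ccl24, a chemokine for eosinophils, rose from 1.28 ± 0.34 (SD, n = 4) to 503 ± 32.4 CPM, by 8.83 ± 0.18 on the log2 scale (edgeR adjusted p = 2.71e-10). Mrc1, the mannose receptor, rose from 424 ± 46.4 to 2083 ± 335 CPM. Alox15, a lipoxygenase, rose from 0.93 ± 0.90 to 169 ± 137 CPM, with a wide spread in the capsule. Il27ra, a cytokine receptor chain, rose by 3.58 ± 0.26 on the log2 scale.

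In the opposite direction the metalloelastase gene Mmp12 fell by 5.19 ± 0.16 on the log2 scale, from 1077 ± 62.4 CPM in the kidney to 25.5 ± 5.40 CPM in the capsule. Mmp13, a collagenase, fell by 5.38 ± 0.35 and Ch25h, an oxysterol-producing enzyme, by 3.42 ± 0.22. Clec7a, the beta-glucan receptor, fell by 1.22 ± 0.10. Of the 6 other transcription factors, 1 was higher and 4 were lower, among them Pparg (a fall of 2.33 ± 0.23, from 121 ± 2.92 to 20.8 ± 7.83 CPM) and Ppard (a fall of 1.58 ± 0.15), lipid-sensing nuclear receptors. Of 5 kinases and adaptors, 2 were higher and none was lower. Jak1, which docks on Il4ra, rose by 0.87 ± 0.08.

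Both ligands or alarmins that passed the filter were higher in the capsule macrophages. Il4 itself gave 69 to 257 counts per library, 4.09 ± 1.58 CPM (SD, n = 4), in the capsule and 0 to 4 counts in the kidney, so no fold is given, and the edgeR adjusted p was 1.92e-05. A list of 12 markers of type 2 innate cells and granulocytes, which are known sources of interleukin 4, totalled 151.5 to 339.4 CPM in the capsule, against 50.3 to 68.6 CPM in the kidney. Of its 8 tested genes 7 were higher in the capsule, and Il5 was at 0 in both groups. Il13 reached at most 5 counts in any library. Il2rg, the common gamma chain, is listed at 0 in all 22 libraries.

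**Figure D2:**
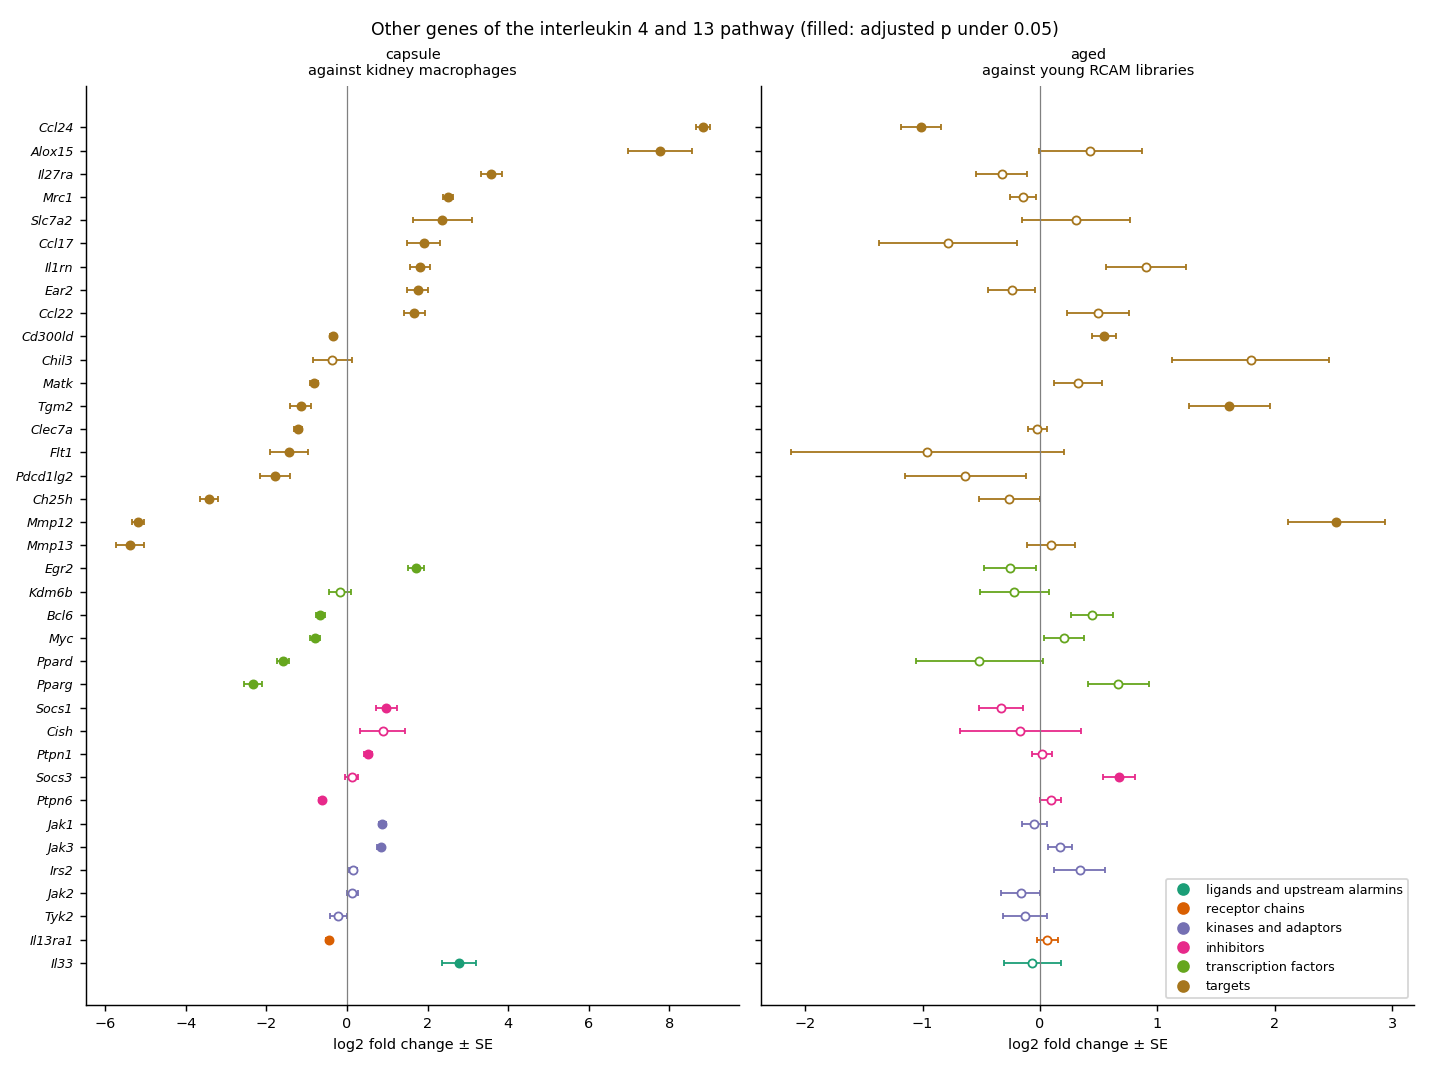
Log2 fold changes ± SE of the 37 other pathway genes tested and with at least 1 count in every sorted library, coloured by role, in capsule against kidney macrophages (left) and aged against young RCAM libraries (right). Filled points passed edgeR's adjusted p of 0.05. The left panel has filled points on both sides of 0, from Ccl24 at 8.83 to Mmp13 at -5.38, and the right panel has 5 filled points.

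On the classical activation list, markers of the response to bacterial products and interferon, 3 of 15 genes tested were higher in capsule macrophages and 3 were lower. Cd38, an ectoenzyme, rose by 6.14 ± 0.15 on the log2 scale, Il6 by 2.96 ± 0.57 and Gbp2 by 1.18 ± 0.26. Il1b, the interleukin 1 beta gene, fell by 3.29 ± 0.10, from 531 ± 44.3 to 47.1 ± 4.47 CPM, Tnf by 0.86 ± 0.28 and the costimulator Cd86 by 0.56 ± 0.07. The call for Tnf was lost without kidney replicate 4 (edgeR adjusted p = 0.0623) and in 1 fit of all 22 libraries (0.0775), in a range of 0.00391 to 0.0775 over its 15 alternatives.

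Markers of other cells also differed between the sorted groups. The dendritic cell list totalled 721.5 to 1085 CPM in the capsule, against 747 to 925 CPM in the kidney, with 7 of 12 higher and 2 lower. Fibroblast genes summed to 459 to 694 CPM in the capsule against 10.3 to 14.4 CPM in the kidney (7 of 7 higher), and proximal tubule genes to 10.5 to 97.7 CPM against 1005 to 1912 CPM (5 of 6 lower in the capsule). Macrophage genes themselves were higher for 9 of 10 and lower for 1 of 10. The part of these differences in the members' values was not tested. In bulk libraries fewer cells of a type and less RNA per cell cannot be told apart.

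Aged RCAM libraries were compared with young ones, which asks what changes in these cells with age. Retnla, Mgl2 and Irf4 fell with age to 0.41, 0.47 and 0.46 of the young level, and the other 5 members did not pass the test. Of 15182 genes tested by edgeR, 4.8% passed in either direction, 3.43% higher in aged libraries and 1.38% lower. The 3 members that fell stood beyond the spread of the 4 libraries of each group.

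Retnla measured 9835, 15246, 9921 and 12504 CPM in young and 4703, 5807, 4836 and 4242 CPM in aged RCAM libraries. Young replicates 2 and 4 were high, and the highest aged library was well under the lowest young one. Retnla fell by 1.30 ± 0.16 on the log2 scale (edgeR adjusted p = 0.0022). Its aged mean of 4897 ± 658 CPM (SD, n = 4) still exceeded that of kidney macrophages, 33.1 ± 5.52 CPM.

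Mgl2 went from 1753, 1532, 1874 and 1770 CPM in young to 702, 858, 863 and 855 CPM in aged RCAM libraries. The groups were separate, and aged replicate 1 was the lowest. Mgl2 fell by 1.10 ± 0.09 (edgeR adjusted p = 0.000489). In the order of group means, aged RCAM libraries (819 ± 78.3 CPM) came next to kidney macrophages (843 ± 21.3 CPM), and these groups overlapped.

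Irf4 measured 90.8, 86.6, 94.8 and 109 CPM in young and 42.3, 46.5, 42.7 and 45.9 CPM in aged RCAM libraries. Irf4 fell by 1.13 ± 0.09 (edgeR adjusted p = 0.000474), with no overlap. It was the member with the smallest adjusted p in this comparison. Each of the 3 kept its direction and its call in all 15 alternative analyses. Over these the adjusted p reached 0.0157 for Retnla, 0.0117 for Mgl2 and 0.0464 for Irf4, the last close to the threshold.

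Clec10a did not follow Mgl2. It measured 750, 692, 672 and 836 CPM in young and 647, 727, 819 and 575 CPM in aged RCAM libraries, which overlap, and its log2 fold change was -0.12 ± 0.12 (edgeR adjusted p = 0.724). The receptor and the signal transducer gave values close to 0: Il4ra had 281, 284, 295 and 295 CPM in young against 295, 319, 352 and 312 CPM in aged libraries, a log2 difference of 0.12 ± 0.07 (edgeR adjusted p = 0.437). For Stat6 the young libraries had 511, 426, 419 and 412 CPM and the aged ones 456, 428, 470 and 478 CPM, a log2 difference of 0.02 ± 0.09 (edgeR adjusted p = 0.943). The Stat6 groups overlapped, with young replicate 1 the highest of the 8.

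Klf4 measured 21.7, 22.5, 18.6 and 25.2 CPM in young and 17.5, 15.3, 22.6 and 25.1 CPM in aged RCAM libraries (log2 fold change -0.16 ± 0.17, edgeR adjusted p = 0.725). Arg1 was the most uneven member, at 2.37, 3.47, 14.3 and 4.48 CPM in young and 17.0, 5.14, 1.94 and 24.2 CPM in aged libraries. High and low libraries occurred at both ages, and the edgeR adjusted p was 0.589 for a log2 difference of 0.96 ± 0.74. Groups did not overlap for 3 of the 8 members and for 11.5% of all genes tested.

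**Figure D3:**
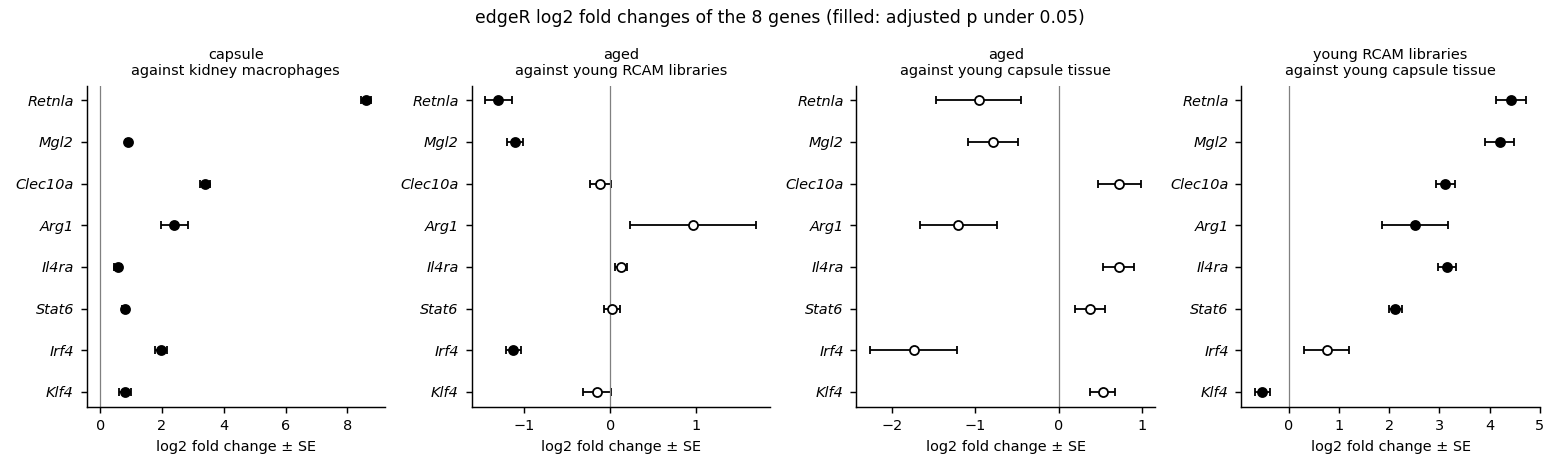
Log2 fold changes ± SE of the 8 genes from edgeR in 4 comparisons, 1 panel each with its own horizontal scale. Filled points passed an adjusted p of 0.05. All 8 points are filled in capsule against kidney macrophages, 3 in the RCAM age comparison (Retnla, Mgl2 and Irf4, all under 0), none in capsule tissue with age, and 7 in young RCAM libraries against young tissue.

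Of the other pathway genes, 4 of 40 tested rose in aged RCAM libraries and 1 fell, with a median log2 fold change of 0.04 against -0.0065 over all genes. By role, the 4 that rose were 3 of 21 targets and 1 of 5 inhibitors. Mmp12 rose from 32.4 ± 22.2 to 188 ± 57.3 CPM, by 2.52 ± 0.41 on the log2 scale (edgeR adjusted p = 0.00869). Cd300ld, a receptor of the CD300 family, rose by 0.55 ± 0.10 (0.014), and the cross-linking enzyme gene Tgm2 by 1.61 ± 0.35 (0.0273), from 4.33 ± 0.97 to 13.5 ± 6.93 CPM. Socs3, a feedback inhibitor of cytokine signalling, rose by 0.67 ± 0.14 (edgeR adjusted p = 0.0236).

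Ccl24 was the pathway gene that fell, from 559 ± 99.4 to 281 ± 66.5 CPM, a fall of 1.01 ± 0.17 on the log2 scale (edgeR adjusted p = 0.0102). No call was made among 2 ligands, 1 receptor chain, 5 kinases and adaptors or 6 transcription factors tested. The young libraries had 3.80 ± 0.81 CPM of Il4 and the aged ones 2.65 ± 0.90 CPM. The call for Tgm2 held in 8 of 15 alternatives (adjusted p 8.86e-05 to 0.114) and that for Socs3 in 11 (0.000138 to 0.0646). Tgm2 lost it without young replicate 1, 3 or 4 or aged replicate 1 or 4, and Socs3 without young replicate 2 or 4 or aged replicate 1 or 4. The calls for Cd300ld and Ccl24 each held in 14 of 15.

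On the classical list 2 of 15 genes tested rose with age and none fell. Il1b rose from 22.9 ± 5.59 to 52.0 ± 10.1 CPM, by 1.16 ± 0.17 on the log2 scale (edgeR adjusted p = 0.0056), and the other was Socs3. Beside these counts, none of the 10 macrophage markers passed edgeR's test with age (1 at an unadjusted p under 0.05), and their summed levels overlapped. Monocyte genes summed to 5671 to 6793 CPM in young and 3572 to 4723 CPM in aged RCAM libraries (1 of 8 higher, 1 lower). The median log2 fold change of the monocyte list was 0.17, so its lower sum is not a fall of most of its genes.

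The summed levels of other marker lists also differed between the ages, without a test of the sums. Fibroblast genes totalled 360 to 512 CPM in young and 756 to 1791 CPM in aged RCAM libraries (4 of 7 higher), and B and plasma cell genes 71.6 to 96.1 CPM and 128 to 345 CPM (4 of 6 tested higher). The dendritic cell list totalled 522 to 593 CPM and 595 to 692 CPM, with 1 of 12 genes higher and 11 not past the test. T cell genes totalled 35.4 to 46.2 CPM and 55.9 to 80.2 CPM (0 of 6 tested past edgeR's threshold, 2 at an unadjusted p under 0.05), endothelial genes 12.8 to 21.99 CPM and 26.9 to 39.3 CPM (1 of 6 higher), and adipocyte genes 20.8 to 37.9 CPM and 40.9 to 84.1 CPM (1 of 5 tested higher). The type 2 innate and granulocyte list had the lower sums in aged libraries, 143.9 to 161.4 CPM in young and 104.6 to 136.6 CPM in aged, with a median log2 fold change of -0.37. Of its 10 tested genes 1 was lower (Ccr3, an eosinophil chemokine receptor, 46.1 ± 3.41 to 22.3 ± 8.28 CPM) and 1 was higher (Kit, a mast cell receptor that is also on the dendritic cell list, 11.5 ± 4.14 to 24.4 ± 4.66 CPM). Ms4a1, a defining B cell gene, was at 0 in all 8 RCAM libraries, while Pax5 was at 0 in the young ones. Irf4 and Mgl2 are also known from B or dendritic cells. The part of these cells in the members' values was not tested.

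The balance between the lectin genes shifted in the same comparisons. Mgl2 supplied 70.0, 68.9, 73.6 and 67.9% of the summed Mgl2 and Clec10a counts in young RCAM libraries and 52.0, 54.1, 51.3 and 59.8% in aged ones. In kidney macrophages the share was 93.5, 91.7, 94.1 and 90.4%, and in capsule macrophages 67.9, 64.0, 71.0 and 69.9%. In capsule tissue it was 51.3, 48.4 and 55.7% in young and 24.5, 39.5 and 21.4% in aged libraries. Aged libraries thus had the lower share in both settings, and the groups did not overlap in either.

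Each of 4 comparisons of the log2 ratio of Mgl2 to Clec10a was tested by a 2-sided exact permutation test over libraries, adjusted over the 4. The ratio fell by 0.98 on the log2 scale with age in RCAM libraries (exact p = 0.0286, adjusted 0.0381) and by 2.53 from kidney to capsule macrophages (exact p = 0.0286, adjusted 0.0381). It was 1.13 higher in young RCAM libraries than in young tissue (exact p = 0.0286, adjusted 0.0381). In capsule tissue it fell by 1.48 with age (exact p = 0.1, adjusted 0.1), where 3 against 3 libraries cannot give less than 0.1. These comparisons share libraries and are not independent of one another.

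**Figure D4:**
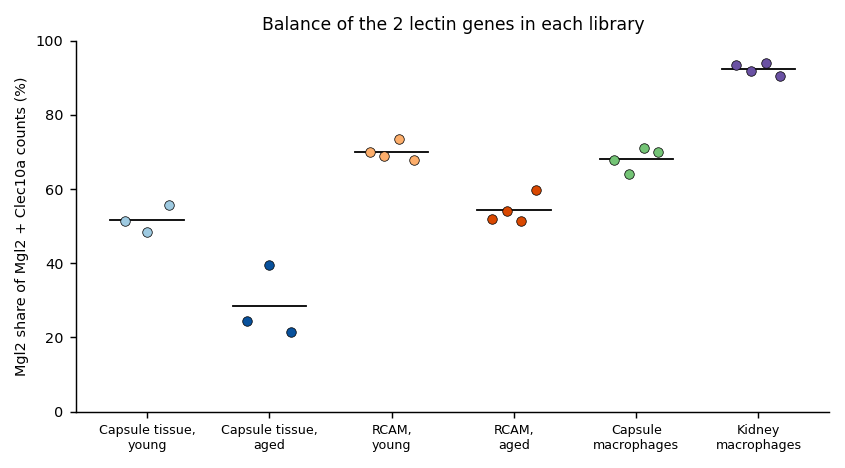
Share of Mgl2 in the summed counts of Mgl2 and Clec10a, in percent, with 1 point per library and a line at the group mean. The share is 90.4% or more in kidney macrophages, 67.9 to 73.6% in young and 51.3 to 59.8% in aged RCAM libraries, and lowest in aged capsule tissue at 21.4 to 39.5%.

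Aged capsule tissue was compared with young tissue, which asks what changes with age in the whole sheath. None of the 8 members passed edgeR's test there, and only 0.239% of the 16350 genes tested did (0.153% higher, 0.0856% lower), while 3685 genes had an unadjusted p under 0.05, 6 members among them. DESeq2 called 2 members, Irf4 and Il4ra, among 1876 genes called in all, and limma-voom called 0 members and 25 genes. With the replicate number as a block, edgeR called 2196 genes and 4 members, with adjusted p of 0.0214 for Clec10a, 0.0305 for Irf4, 0.0293 for Il4ra and 0.0369 for Klf4, but the labels do not say that the numbers pair the libraries. By direction, Retnla, Mgl2, Irf4 and Arg1 had lower means in aged tissue and Clec10a, Il4ra, Stat6 and Klf4 had higher means. Groups did not overlap for 6 of the 8 members and for 28.6% of all genes tested.

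Retnla measured 666, 487 and 835 CPM in young and 150.5, 642 and 296 CPM in aged tissue, where aged replicate 2 lay inside the young range. Its log2 fold change was -0.96 ± 0.51 (edgeR adjusted p = 0.302), with -1.67 when that library was left out and -0.57 when aged replicate 1 was. Mgl2 measured 104, 76.0 and 158 CPM in young and 57.6, 90.7 and 62.4 CPM in aged tissue, also overlapping (-0.79 ± 0.30, edgeR adjusted p = 0.181), and its log2 fold change was -0.43 without young replicate 3. Irf4 had 40.5, 131 and 31.2 CPM in young and 20.1, 25.9 and 20.5 CPM in aged tissue. Young replicate 2 stood far above the other young libraries, and the aged libraries lay under all of them.

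The log2 fold change of Irf4 in tissue was -1.74 ± 0.52 (edgeR adjusted p = 0.117), and -0.81 without young replicate 2. Ucp1, the brown fat gene, ranged from 230 to 756 CPM in young and from 92.2 to 110 CPM in aged tissue (edgeR adjusted p = 0.0768). It was singled out after its values were seen. The whole adipocyte list totalled 8854 to 18052 CPM in young and 10152 to 15959 CPM in aged tissue, with a median log2 fold change of 0.14 and 0 of 6 genes past edgeR's threshold (2 at an unadjusted p under 0.05), and the part of fat cells in the Irf4 values was not tested. Clec10a measured 98.3, 81.1 and 126 CPM in young and 177, 139 and 229 CPM in aged tissue. All aged libraries were above all young ones, by a log2 difference of 0.73 ± 0.26 (edgeR adjusted p = 0.157).

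Il4ra measured 49.98, 29.8 and 38.1 CPM in young and 75.7, 71.1 and 62.7 CPM in aged tissue (0.72 ± 0.19, edgeR adjusted p = 0.102), without overlap. Stat6 had 131, 115 and 120 CPM against 203, 148 and 166 CPM (0.38 ± 0.18, edgeR adjusted p = 0.253), also without overlap. Klf4 was the one member more abundant in tissue than in the sorted groups, at 41.1, 33.7 and 39.8 CPM in young and 63.9, 54.6 and 60.2 CPM in aged tissue (0.53 ± 0.15, edgeR adjusted p = 0.107). Arg1 rested on 17 to 36 counts per tissue library, at 1.26, 0.94 and 1.62 CPM in young and 0.60, 0.46 and 0.74 CPM in aged tissue (-1.21 ± 0.46, edgeR adjusted p = 0.179).

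None of the 40 other pathway genes tested passed edgeR's test in tissue (17 at an unadjusted p under 0.05, 10 by DESeq2, 0 by limma-voom), and their median log2 fold change was 0.42 against 0.035 over all genes. None of 16 classical genes passed (3 at an unadjusted p under 0.05). The summed macrophage genes were 1830 to 3618 CPM in young and 3760 to 9347 CPM in aged tissue, although none of the 10 passed singly (6 at an unadjusted p under 0.05), and B and plasma cell genes went from 51.4 to 70.6 CPM up to 391 to 863 CPM (3 of 9 higher). T cell genes totalled 19.2 to 40.3 CPM in young and 75.5 to 119 CPM in aged tissue (0 of 8 past edgeR's threshold, 8 at an unadjusted p under 0.05). Proximal tubule genes totalled 6070 to 23675 CPM in young and 1176 to 5814 CPM in aged tissue, with a median log2 fold change of -2.31 and 0 of 6 past the threshold (6 at an unadjusted p under 0.05). The part of these cells in the tissue values was not tested.

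Whether the age difference itself differed between RCAM libraries and tissue was tested as an interaction over the 14 libraries. Of 18856 genes, 5.05% passed edgeR's test (3.12% with a more positive age effect in RCAM libraries, 1.93% with a more negative one), and none of the 8 members did. An unadjusted edgeR p under 0.05 was reached by 3 members and by 4228 of all genes. DESeq2 called 2 members and 2324 genes. By limma-voom 0 members were called, with 566 genes more positive and 281 more negative. Clec10a gave -0.81 ± 0.28 (edgeR adjusted p = 0.103), Il4ra -0.56 ± 0.18 (0.0906) and Klf4 -0.64 ± 0.23 (0.117). In that order, their log2 differences with age were -0.12, 0.12 and -0.16 in RCAM libraries. In tissue they were 0.73, 0.72 and 0.53, and none passed edgeR's test in either setting. For Retnla, Mgl2 and Irf4 the differences were -0.30, -0.28 and 0.66 (edgeR adjusted p 0.825, 0.680 and 0.507). A p that misses the threshold does not show that the age effects were alike.

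Among 42 other pathway genes tested, 1 had a more positive age effect in RCAM libraries and 2 a more negative one. Irs2, an adaptor of the receptor, had 115 ± 43.5 CPM in young and 51.1 ± 10.1 CPM in aged tissue, against 45.0 ± 10.4 and 57.8 ± 19.2 CPM in RCAM libraries, a difference of 1.68 ± 0.40 on the log2 scale (edgeR adjusted p = 0.0341). Mrc1 went from 246 ± 61.3 to 507 ± 77.1 CPM in tissue and from 3734 ± 329 to 3431 ± 407 CPM in RCAM libraries (-1.04 ± 0.25, adjusted p = 0.0342). Ptpn1, a phosphatase that limits the signal, gave -0.57 ± 0.15 (adjusted p = 0.0464). On the classical list Ccl5 and Gbp2 gave -2.22 ± 0.58 and -1.04 ± 0.28 (adjusted p 0.0448 and 0.048).

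Young RCAM libraries were also compared with young capsule tissue, which carry the same age label. Retnla, Mgl2, Clec10a, Il4ra, Stat6 and Arg1 were higher in the RCAM libraries, Klf4 was lower and Irf4 did not pass. By edgeR 75.9% of 17491 genes passed here, 35.2% higher and 40.6% lower, and groups did not overlap for 76.2%. Most genes of either kind passed here, members or not.

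Retnla was 21.5-fold higher (log2 fold change 4.42 ± 0.31, edgeR adjusted p = 5.00e-06) and Mgl2 18.4-fold higher (4.20 ± 0.28, 4.47e-06). Clec10a was 8.69-fold higher (3.12 ± 0.20, edgeR adjusted p = 3.25e-06), Il4ra 8.83-fold higher (3.14 ± 0.18, 2.08e-06) and Stat6 4.35-fold higher (2.12 ± 0.14, 3.64e-06). Arg1 gave 2.50 ± 0.66 (edgeR adjusted p = 0.00792) and Klf4 -0.53 ± 0.15 (0.00936), with all RCAM libraries under all tissue libraries for Klf4. Irf4 gave 0.75 ± 0.45 (edgeR adjusted p = 0.160), and 1.68 (3.55e-05) without young tissue replicate 2, in a range of 3.55e-05 to 0.401 over its 14 alternatives.

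Of the other pathway genes, 25 of 41 tested were higher in RCAM libraries and 14 were lower, with a median log2 fold change of 2.08 against -0.14 over all genes. Mrc1 (4.19 ± 0.23), Ccl24 (4.41 ± 0.24), Cd300ld (3.32 ± 0.21), Ear2 (3.90 ± 0.26), Matk (4.38 ± 0.30) and Ptpn1 (2.44 ± 0.13) were higher. Tgm2 (-5.94 ± 0.20), Cish (-6.12 ± 0.80), the alarmin Il33 (-3.42 ± 0.35), Pparg (-3.04 ± 0.36) and the kinase Tyk2 (-1.86 ± 0.18) were lower. Tslp, an epithelial alarmin, gave 55 to 116 counts in young tissue and 0 in every RCAM library. On the classical list 13 of 17 were higher, led by Cd86 (3.82 ± 0.26), Irf5 (4.03 ± 0.28) and Socs3 (2.55 ± 0.18). The 2 that were lower were Nos2 (-5.08 ± 1.40) and Cxcl10, which was at 0 in the RCAM libraries.

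Across all 22 libraries the order of group means differed by member. For Retnla it ran from young RCAM libraries and capsule macrophages (11877 and 11220 CPM, ranges overlapping) through aged RCAM libraries (4897), young tissue (663) and aged tissue (363, overlapping) down to kidney macrophages (33.1). For Irf4 it ran from young RCAM libraries (95.2 ± 9.68 CPM) to aged tissue (22.1 ± 3.22) and kidney macrophages (20.5 ± 1.75), the lowest pair overlapping. Stat6 was highest in capsule macrophages (542 ± 42.0 CPM), with young and aged RCAM libraries next (442 ± 46.3 and 458 ± 21.7) and overlapping each other. Young RCAM libraries also overlapped capsule macrophages, with young RCAM replicate 1 at 511 CPM and capsule macrophage replicate 1 at 481 CPM. Klf4 alone had its highest mean in aged tissue (59.6 ± 4.69 CPM).

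The genes whose pattern over the 22 libraries was most like a member's were sought among 8818 protein-coding genes, by the root mean square difference of centred log2 CPM. Ccl24 (0.53), Mmp9 (0.67) and Timd4 (0.67) were nearest to Retnla, whose own standard deviation was 3.27. Tns4 (0.46) and Ctsc (0.46) were among the nearest to Mgl2, with a standard deviation of 1.76. Rfk (0.52), Syt3 (0.53) and Cables1 (0.55) were nearest to Irf4, with a standard deviation of 0.92, so the likeness is weakest there. These distances are a description over libraries that share groups and depth.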

How the data were processed

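The 8 members and the gene lists were chosen with earlier results of these data known. Counts of reads per gene, whole numbers and not normalized, are as deposited by the authors, 1 table per library. The tables also hold RPKM values that the authors deposited, computed with a gene width equal to the genomic span for 85.6% of genes, and no result rests on them. GRCm38 is the build per the submitters' processing notes. Aligner, counter and use of strand: not given in the sources used here. Per the labels, reads were single-end of 50 bases, and kits with 100 ng or 2 ng of RNA were used without saying for which samples. Symbols came from GENCODE M21, which held 52403 of 52636 identifiers.

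CPM divide a count by the plain library total. Tests on the counts used edgeR 4.0.16 under R 4.3.3 (quasi-likelihood F test, 2-sided, TMM scaling, default expression filter, only the groups compared in a fit) and Benjamini-Hochberg adjustment across the genes of each fit, at 0.05. DESeq2 1.42.0, limma 3.58.1 (voom), other scalings, no filter, all 22 libraries in 1 fit, a replicate block and leaving out libraries were alternatives. The procedure was tested on simulated counts, whose spread was set by a fixed rule and not taken from these libraries. The text names all members, up to 6 other pathway genes and up to 3 classical genes of smallest p in each direction past the threshold, and 3 genes of nearest pattern for Retnla, Mgl2 and Irf4 (mean log2 CPM of at least 3, prior count 2), of which 1 is not reported here. Il13, Il2rg, Ucp1, Ccr3, Kit, the markers and the Il4 levels of young and aged RCAM libraries were printed beside them from the lists, chosen after their values were seen.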

Additional observations from a re-analysis of the deposited data

Results flagged for a closer look

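In the 32 groups of 4 libraries examined for the 8 genes, 2 held a library that stood apart from the other 3 by the gap to its nearest neighbour, and chance alone flags about 1 in 20 such groups. Mgl2 in aged RCAM replicate 1 was 702.005 CPM, below the other aged libraries. Stat6 in young RCAM replicate 1 was 511.082 CPM, above the other young libraries at 412 to 426 CPM.

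By the interaction test, 5 genes of the pathway and classical lists had an age effect in RCAM libraries that differed from the one in tissue. The differences on the log2 scale were 1.676 for Irs2, -1.037 for Mrc1, -0.567 for Ptpn1, -2.219 for Ccl5 and -1.043 for Gbp2. Their calls were lost in 10, 7, 14, 16 and 13 of 22 alternatives, in that order, with adjusted p up to 0.108, 0.073, 0.0864, 0.117 and 0.0847.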

How the results depend on the processing

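All 8 members kept their call and direction in capsule against kidney macrophages over 15 alternatives, and Retnla, Mgl2 and Irf4 did in RCAM libraries with age. The tissue comparison moved most. There 39 genes passed, against 1095 without the filter, 1876 by DESeq2, 25 by limma-voom, 3097 in 1 fit of all 22 libraries, 487 without both libraries numbered 2, and 0 to 387 on leaving out each library, with 0 without young or aged replicate 1. Members called in tissue went from 0 to 1 without the filter (Irf4), 2 by DESeq2 and 6 in 1 fit of all libraries. In RCAM libraries 729 genes passed, against 1441 by DESeq2 and 451 to 629 on leaving out each library. Of the interaction 952 genes passed, against 2324 by DESeq2, 2204 in 1 fit of all libraries and 282 to 1594 on leaving out each library, and members called went from 0 to 2, 3 and 0 to 1. Without scaling factors the share of calls that were higher moved from 49.2 to 35.1% in capsule against kidney macrophages and from 61.9 to 45% in the interaction, where 1 fit of all libraries gave 32.5%. In tissue that share was 64.1%, against 40.2% by DESeq2, 74% in 1 fit of all libraries and 42.9% with the replicate block. In RCAM libraries it was 71.3%, against 84.5% in 1 fit of all libraries and 83.3% with the block. The median of all genes in young RCAM libraries against young tissue moved from -0.14 to -0.40 without scaling and to -0.25 with DESeq2-type factors.

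Signs reversed only for values that passed no test. The log2 fold change of Stat6 in RCAM libraries with age ran from -0.017 to 0.13 on leaving out each library (-0.017 and -0.0072 without young replicate 3 and 4). In the interaction Retnla ran from -0.79 to 0.40 (0.40 without aged tissue replicate 2) and Irf4 from -0.40 (without young tissue replicate 2) to 1.005. Without both tissue libraries numbered 2 the interaction was 0.49 for Retnla, 0.079 for Mgl2 and -0.26 for Irf4. In young RCAM libraries against young tissue Irf4 was also called by limma-voom (adjusted p 0.0422) and in 1 fit of all libraries (0.0309), while Arg1 missed by limma-voom (0.0518) and Klf4 in that fit (0.0507). The log2 ratio of Mgl2 to Clec10a ran from -1.09 to -0.90 in RCAM libraries with age and from 1.03 to 1.24 in young RCAM libraries against young tissue on leaving out each library. In the comparison with tissue, fewer libraries limit the smallest p of the exact test. The cause of the other changes was not tested.

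The replicate numbers are not stated to pair samples. Deviations of same-numbered tissue libraries correlated at 0.099, 0.353 and 0.31 over all genes tested and at 0.201, 0.54 and 0.498 over genes with a mean log2 CPM over 3, each highest for its own number. Unequal numbers gave at most 0.038 and 0.055. By a bound of 0.1 for every pair, the first set misses and the second passes, so whether the numbers pair the tissue libraries is not settled, and the fit without the block was kept as designed. With the replicate block 2196 genes and 4 members (Clec10a, Irf4, Il4ra and Klf4) were called in tissue and 336 genes in RCAM libraries, where Ccl24 and Tgm2 were lost, and no other member's call changed. Within pairs of equal number the log2 ratio of Mgl2 to Clec10a was -2.53, -0.98 and 1.18 in capsule against kidney macrophages, RCAM libraries with age and young RCAM libraries against young tissue, each with an adjusted p of 0.25 in a design too small to pass. At 10 to 37 counts per library in kidney macrophages and 17 to 36 in tissue, Arg1 is the member that depth limits most.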
